A study of Homo sapiens with 14 samples.

Results

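DEK, a chromatin protein whose transcript carried C-to-U edits mostly in the 3′UTR, was described across 14 RBFOX2-INSCRIBE libraries made from very small amounts of RNA. The members are the edit sites on the minus strand inside the span of DEK (ENSG00000124795.17, hg38 chromosome 6, 18223860 to 18264548), 91 of the 394915 sites in all libraries, together with 62 of 208672 edit clusters. The 91 sites fell on 78 different cytosines. DEK was picked because its site number was higher with RBFOX2 than with Buffer-only at 1 ng, so every value of that contrast is given as a description with no test. That contrast does not use the 100 pg libraries, and DEK site numbers were tested in them only. The choice was still made with earlier results of these data known, so the 100 pg libraries are not a fully separate check. Per the methods, either input was drawn from the total RNA of each sample. Whether libraries of the same number share the RNA of a slide is not stated.

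All libraries came from methanol-fixed HEK293T cells, an established human embryonic kidney line that the labels also write as HEK293XT. For the RBFOX2 libraries the fixed cells received a rabbit antibody to RBFOX2 and then APO1-Nb, a fusion of the cytidine deaminase APOBEC1 to a nanobody that holds on to rabbit antibodies. Enzyme-only cells received APO1-Nb without antibody, and Buffer-only cells received neither. At 1 ng and again at 100 pg of total RNA there were 3 RBFOX2, 3 Buffer-only and 1 Enzyme-only libraries. Replicates were separate slides of 1 line and are called technical by the study, so their spread holds no biological variation, and no replicate stands behind the Enzyme-only values.

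An edit site is a cytosine at which SAILOR found C-to-U mismatches with a score above 0.5, and a cluster is a window in which FLARE found more edits than its background. A library held 18650 to 42589 sites in all, and the median site was covered by 19 to 23 reads. RBFOX2 libraries held more sites in total than Buffer-only libraries, 40162 to 42589 against 20330 to 22543 at 1 ng and 26554 to 27437 against 18650 to 21140 at 100 pg. Of the marker lists, all 4 genes chosen for the cell line (VIM, KRT8, KRT18, CDH2) held sites, and none of the 3 blood or 2 liver genes did. Of the neuron genes RBFOX3 and SYT1, 1 held sites (33), and of the fibroblast genes COL1A1 and COL1A2, 1 held 2.

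DEK binds DNA and histones, changes the way DNA is wound in chromatin, and acts as a chaperone of histone H3.3. It is phosphorylated by casein kinase 2, modified by PARP1, linked to the recognition of 3′ splice sites, and fused to NUP214 in a form of leukemia. RBFOX2 regulates splicing and recognises UGCAUG in RNA. APOBEC1 favours cytosines that follow A or U.

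The MANE transcript of DEK (ENST00000652689.1) has 11 exons and 3142 nt, of which 1125 nt code for protein. Its 3′UTR is a stretch of 1859 nt (18223860 to 18225718) that lies wholly in exon 11. No annotated gene overlaps DEK on either strand. The nearest, KDM1B on the plus strand, ends 6 nt beyond the 3′ end of DEK.

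UGCAUG was searched only on the strand of the RNA and occurs 16 times in the span, 14 times in introns and in 2 copies in the 3′UTR. Of 1196 3′UTRs of similar length (1674 to 2044 nt), 41.6% hold at least 1 copy and 13.5% hold 2 or more. The 3′UTR copies are shown first because the edits near a motif lay at these copies and at none of the intronic ones. They start 524 nt and 209 nt after the stop codon. Sequences are from hg38 on the minus strand, 5′ to 3′, with T for U and the motif in capitals.
distal copy, chr6:18225178-18225207: gaacttttctccTGCATGtgtatatatgtc
proximal copy, chr6:18225493-18225522: agtttaaaatctTGCATGgcattaattgtt

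The next set are the cytosines that were called in RBFOX2 libraries of both inputs, and they are shown for that reason. Of these, 18225466 was called in replicate 2 of both inputs, 18225381 in replicate 3 of both and 18225199 in replicate 1 of both. The remaining position, 18224838, was called in replicate 2 at 100 pg and replicate 3 at 1 ng. Libraries of the same number may hold RNA of the same slide, so these calls are not known to be separate. The called cytosine is in capitals.
18225466, chr6:18225456-18225476: gtattttgtaCattttggatt
18225381, chr6:18225371-18225391: ttaaggcataCttttaatcaa
18225199, chr6:18225189-18225209: tggaacttttCtcctgcatgt
18224838, chr6:18224828-18224848: atcaaagcttCaaaaactttg
Each of these cytosines follows A or U, and the window of 18225199 runs into the distal UGCAUG.

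The last set are the cytosines called in 2 of the 3 RBFOX2 libraries at 1 ng, the most that any DEK position reached.
18225600, chr6:18225590-18225610: gttagtagaaCttactgctga
18225358, chr6:18225348-18225368: agaacaaaaaCtattatcacc
18225153, chr6:18225143-18225163: acaaaagtgaCagatgttatt
All 3 called cytosines follow A, and 18225153 lies 39.5 nt from the centre of the distal motif.

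At 1 ng DEK held 19, 16 and 20 sites in the RBFOX2 libraries, 2, 0 and 0 in the Buffer-only libraries and 7 in the Enzyme-only library. The RBFOX2 libraries stood above all others, and the Enzyme-only library stood between the groups. The means were 18.3 ± 2.08 with RBFOX2 and 0.667 ± 1.15 with Buffer-only (SD, n = 3 each). Every RBFOX2 library was also above every Buffer-only library for 27.7% of the 7692 genes with 5 sites or more, a background against which nothing is read here since DEK was chosen on this contrast. The edited reads behind the DEK sites numbered 58, 33 and 60 with RBFOX2, 15 with Enzyme-only, and 2, 0 and 0 with Buffer-only.

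Set against the total number of sites in each library, DEK held 4.73, 3.79 and 4.70 of every 10000 sites with RBFOX2, 1.84 with Enzyme-only, and 0.984, 0 and 0 with Buffer-only. The groups did not overlap on this scale, which was so for 17% of the 7692 genes. In edgeR the log2 fold change of the DEK site number was 3.22 ± 0.71 (SE), beside a median of 0.23 over the 2707 genes tested. Of these genes 1.18% were called higher at an adjusted p under 0.05, and 0 were with DESeq2 (197 at an unadjusted p under 0.05). The fold change of DEK rests on 2 Buffer-only sites, both in replicate 1, and was 6.80 without that library, a fitted value against libraries at 0 that is no bound.

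At 100 pg, in libraries outside the contrast on which DEK was picked, the order of RBFOX2 and Buffer-only was the same and the numbers were smaller. DEK held 2, 6 and 4 sites with RBFOX2 and 1, 1 and 0 with Buffer-only. The groups did not overlap, as was so for 9.24% of the 6027 genes with 5 sites or more. The means were 4 ± 2 and 0.667 ± 0.577 (SD, n = 3 each, exact two-sided permutation test, p = 0.1), and 0.1 is the smallest p that 3 libraries against 3 can give. Per 10000 sites the means were 1.47 ± 0.72 and 0.318 ± 0.275 (exact permutation p = 0.1), and this scale also kept the groups apart, as it did for 8.71% of genes.

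The edited reads at 100 pg numbered 20, 48 and 19 with RBFOX2 and 5, 5 and 0 with Buffer-only. Their means were 29 ± 16.5 and 3.33 ± 2.89 (exact two-sided permutation p = 0.1). Most of the spread within RBFOX2 came from replicate 2, whose 48 reads were more than those of the other libraries together, and without it the difference of 25.7 reads was 16.2. DEK clusters numbered 1, 5 and 4 with RBFOX2 and 1, 1 and 0 with Buffer-only, which overlap (exact two-sided permutation p = 0.3).

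DEK did not reach the minimum of 3 sites in 3 libraries at 100 pg and was therefore not among the 1159 genes of that edgeR fit. That fit called 0 genes, as did DESeq2, while 131 genes passed an unadjusted p of 0.05 upwards and 14 downwards. With no filter beyond 1 site, the log2 fold change of DEK was 2.02 ± 1.1 (SE) among 14089 genes, of which 1 was called higher (0.0071%; edgeR quasi-likelihood test, adjusted p = 0.755 for DEK).

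The Enzyme-only library at 100 pg held 13 DEK sites and 85 edited reads, more than any RBFOX2 library of that input. An Enzyme-only library above every RBFOX2 library was seen for 16% of the 6870 genes with 5 sites or more at 100 pg. At 1 ng, where the 7 sites of the Enzyme-only library lay below all 3 RBFOX2 libraries, it was seen for 17.1% of 8436 genes. Per 10000 sites the Enzyme-only values were 5.24 at 100 pg and 1.84 at 1 ng. The RBFOX2 and Enzyme-only libraries were thus in opposite order at the 2 inputs, and with 1 Enzyme-only library each this difference was not tested.

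Sites on the opposite strand of the same span, where a C-to-U mismatch would read as G-to-A in DEK RNA, were counted for comparison. It held 1, 3 and 1 sites with RBFOX2, 1 with Enzyme-only, and 2, 3 and 1 with Buffer-only at 1 ng. The groups overlapped there, with means of 1.67 ± 1.15 and 2.00 ± 1.00 (exact two-sided permutation p = 1). At 100 pg the opposite strand held 0, 2 and 0 sites with RBFOX2, 1 with Enzyme-only, and 2, 2 and 3 with Buffer-only (exact two-sided permutation p = 0.3). No opposite-strand cluster was called in the span. The sources name a low-input library kit but do not say whether it preserves strand. Opposite-strand coverage in exon 5 at 100 pg was 459 reads at a site of Buffer-only replicate 1. On the strand of DEK, a site of Enzyme-only in that exon had 502 reads. Whether the opposite-strand reads came from DEK or from an unannotated antisense RNA was not tested.

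**Figure D1:**
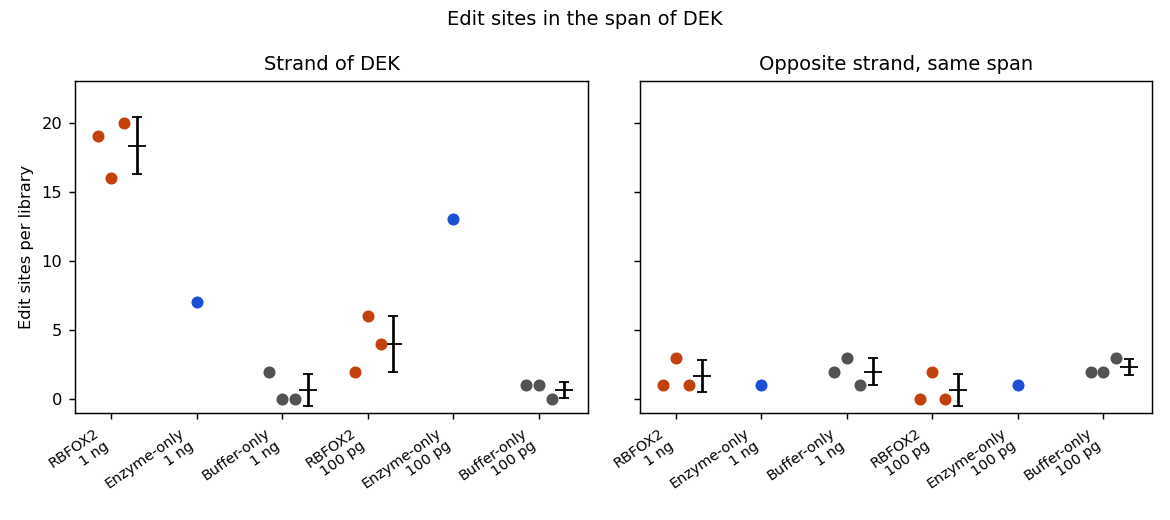
Number of edit sites per library in the span of DEK on its own strand (left) and on the opposite strand (right). Points are libraries and bars are the mean ± SD of 3 replicates. On the strand of DEK the RBFOX2 libraries lie at 16 to 20 sites at 1 ng and at 2 to 6 at 100 pg, and the Enzyme-only libraries at 7 and 13, while no library exceeds 3 on the opposite strand.

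Sites can only be called where reads cover the transcript, and in these bulk samples fewer cells with the transcript and less RNA per cell cannot be told apart. The site lists give coverage only at called sites, so the DEK coverage of Buffer-only libraries is known at few places. In exon 11, opposite-strand sites of Buffer-only replicate 2 at 1 ng, at 18224730 and 18224822, were covered by 233 and 240 reads. The DEK sites of RBFOX2 libraries at 18224832 and 18224838 were covered by 159 and 167. An opposite-strand site of Buffer-only replicate 1 at 1 ng, at 18225428, was covered by 68 reads, beside 97 at 18225466 in RBFOX2 replicate 2. Such opposite-strand counts stand for DEK coverage only if the kit does not preserve strand. In exon 9 at 1 ng, overlapping cluster windows had a mean depth of 154 in RBFOX2 replicate 2 and 137 in Buffer-only replicate 1. Their sites had 66 and 49 reads. The mean depth of a window is not the coverage of its site. An intronic window of Enzyme-only at 1 ng had a mean depth of 934, with 10 reads at its site. In exon 7 at 100 pg, separate windows had a mean depth of 936 in RBFOX2 replicate 2 and 503 in Buffer-only replicate 1. Their sites had 375 and 197 reads. At 100 pg the windows around the distal motif had a mean depth of 279 in RBFOX2 replicate 1, 268 in Buffer-only replicate 2 and 181 in Enzyme-only. At sites there, Buffer-only replicate 2 had 144 reads (18225196) and RBFOX2 replicate 1 had 125 and 131 (18225193 and 18225199). At the intronic position 18239984 at 1 ng, Buffer-only replicate 1 had 13 reads and RBFOX2 replicate 2 had 14. On the strand of DEK, Buffer-only was thus above RBFOX2 only in the site reads at the distal motif. It was below RBFOX2 in every other comparison listed for that strand. The part of coverage in the DEK site numbers was not tested.

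The edits of DEK were concentrated in its 3′UTR. At 1 ng the 3′UTR held 17, 5 and 16 sites with RBFOX2, 5 with Enzyme-only, and none in any Buffer-only library. At 100 pg it held 2, 4 and 3 sites with RBFOX2, 8 with Enzyme-only, and 0, 1 and 0 with Buffer-only. The single Buffer-only site of the 3′UTR, at 18225196, was edited in 5 of 144 reads and was also a site of the Enzyme-only library at 100 pg (4 of 68 reads).

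Counted per cytosine, 49 of the 262 cytosines of the 3′UTR were a site in at least 1 library (18.7%), against 10 of 179 in the coding sequence (5.59%), 2 of 65 in the 5′UTR (3.08%) and 17 of 6815 in introns (0.249%). Reads cover these regions unequally. At 1 ng the 3′UTR sites of RBFOX2 were covered by 55 to 252 reads and the intronic ones by 5 to 21.

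Along the 3′UTR the called cytosines lay near the stop codon. In the first 500 nt after the stop codon 19 of 71 cytosines were a site in some library, and in the next 500 nt 24 of 74 were. Beyond 1000 nt the numbers were 5 of 70 cytosines up to 1500 nt and 1 of 47 in the remaining stretch. The site farthest from the stop codon, at 18224202, was called in both Enzyme-only libraries (6 of 36 reads at 100 pg and 1 of 35 at 1 ng) and in no RBFOX2 library. The farthest RBFOX2 site lay 1308 nt after the stop codon.

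**Figure D2:**
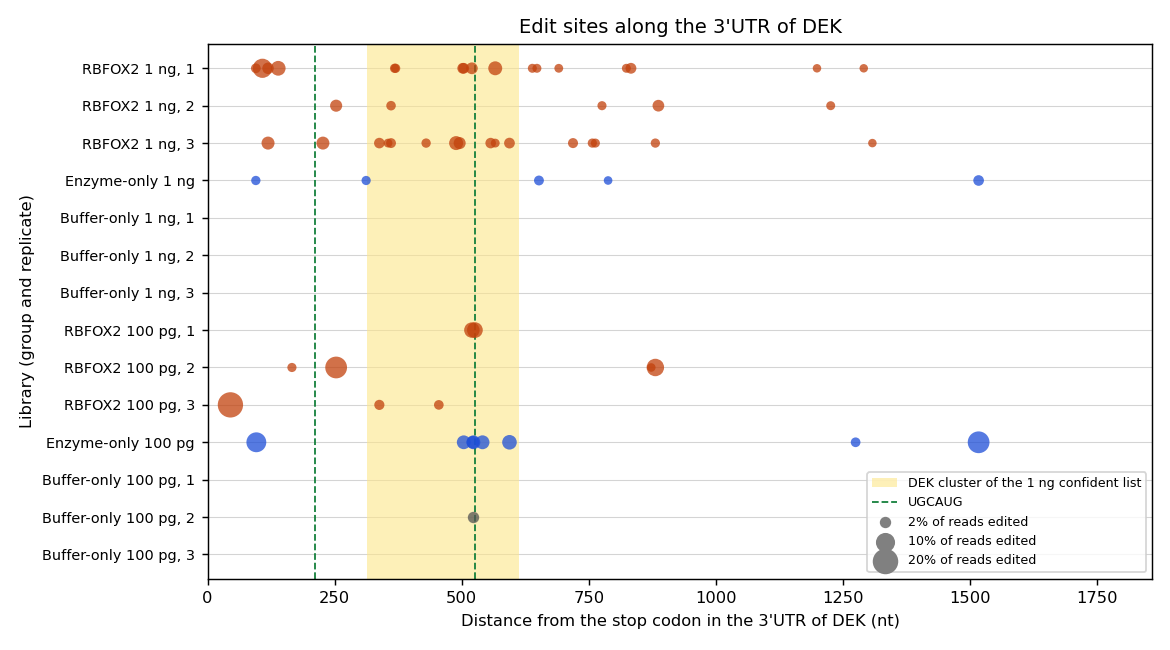
Edit sites along the 3′UTR of DEK by distance from the stop codon (nt), with 1 row per library. The area of a mark grows with the edit fraction (% of reads), the dashed lines are the UGCAUG copies and the shaded stretch is the DEK cluster of the 1 ng confident list (314 to 613 nt), whose bounds are those of the cluster in RBFOX2 replicate 3. Marks gather within 1000 nt of the stop codon, the 1 ng Buffer-only rows are empty, and RBFOX2 replicate 2 at 1 ng has 5 marks against 17 and 16 in the others.

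RBFOX2 replicate 2 at 1 ng differed from the other replicates in where its DEK sites lay. It had 10 of its 16 sites in introns, where the others had 1 and 2. These 10 sites were covered by 5 to 21 reads, and 8 of the 16 sites of this library rested on a single edited read. Introns 9 and 7 of DEK, with 4 sites each, held most of them. With the coverage raised to at least 10 reads, the mean difference between RBFOX2 and Buffer-only at 1 ng was 15.3 sites instead of 17.7. With only sites of a SAILOR score of at least 0.9 it was 8.33 sites, and the difference at 100 pg was 1.33 sites instead of 3.33 (exact two-sided permutation p = 0.3).

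Of the 10 sites in the coding sequence, 6 would change an amino acid, 3 would be synonymous and 1 would create a stop codon in the edited RNA. The stop codon would arise at 18258346 in exon 3, in 9 of 662 reads of RBFOX2 replicate 2 at 100 pg (1.36%). The coding site with the highest edit fraction, 18226223 in exon 10, rested on 2 of 53 reads of RBFOX2 replicate 3 at 1 ng. No coding position was called in more than 1 library. The only 5′UTR sites, at 18263991 and 18264389, were in the Enzyme-only library at 100 pg (5 of 393 and 5 of 377 reads).

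Edit fractions in the 3′UTR, the share of reads at a site that carried the edit, were low. Their medians at 1 ng were 2.13%, 2.00% and 2.30% in the RBFOX2 libraries and 1.82% in Enzyme-only. At 100 pg the medians were 7.82%, 5.95% and 2.47% with RBFOX2 and 5.88% with Enzyme-only, from 2, 4, 3 and 8 sites. The 100 pg values of RBFOX2 were all above those at 1 ng, though replicate 3 by little. The highest fraction in the 3′UTR was 23.1% (15 of 65 reads, 95% Wilson interval 14.5 to 34.6%), at 18225674 in RBFOX2 replicate 3 at 100 pg, 45 nt after the stop codon. At 1 ng the highest was 12.6% (11 of 87 reads, 7.21 to 21.2%), at 18225611 in RBFOX2 replicate 1. The reads carry no molecular identifiers, so these intervals cover counting error only.

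**Figure D3:**
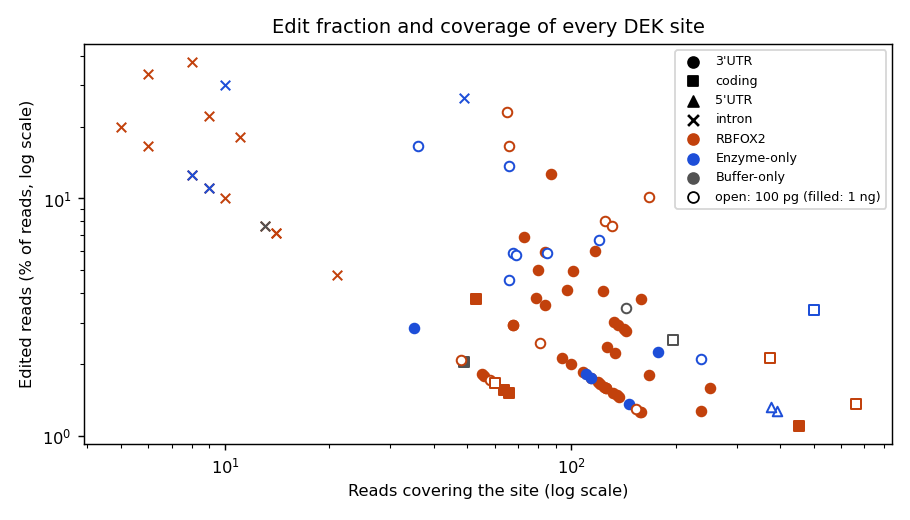
Edit fraction (% of reads, log scale) against the reads covering the site (log scale) for every DEK site. Shapes are regions, colours are groups, and open marks are 100 pg for the exonic sites. Intronic sites (crosses, both inputs) lie at 5 to 49 reads with fractions of 4.76 to 37.5%, and the 1 ng 3′UTR sites of RBFOX2 lie at 55 to 252 reads with fractions of 1.26 to 12.6%.

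The base before the called cytosine was A or U at 18 of 19, 15 of 16 and 19 of 20 DEK sites of the RBFOX2 libraries at 1 ng (94.7%, 93.8% and 95.0%), and at 7 of 7 in Enzyme-only. Of all 3′UTR cytosines of DEK, 67.2% follow A or U. The share is 50.3% for coding, 54.9% for intronic and 26.2% for 5′UTR cytosines, and the site counts here take in all regions. At 100 pg it was A or U at 1 of 2, 4 of 6 and 3 of 4 sites with RBFOX2 and at 8 of 13 (61.5%) with Enzyme-only. Among 3′UTR sites alone at 100 pg it was A or U at 66.7% with RBFOX2, pooled, and 75% with Enzyme-only. A preceding A or U was thus less frequent in every enzyme-treated library at 100 pg than at 1 ng, from few sites each. Of the 4 Buffer-only sites of both inputs, 2 followed U and 2 followed C.

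Sites near the RBFOX2 motif, within 50 nt of the centre of a UGCAUG, made up 4 of 19, 1 of 16 and 5 of 20 DEK sites with RBFOX2 at 1 ng (21.1%, 6.25% and 25%). None of the 7 Enzyme-only sites at 1 ng was near the motif (95% Wilson interval 0 to 35.4%). Over all sites of the same libraries the share was 5.29%, 5.07% and 5.41% with RBFOX2 and 2.79% with Enzyme-only. Over the 3′UTR sites of these libraries it was 6.79%, 6.19% and 6.75% with RBFOX2 and 3.20% with Enzyme-only. Replicates 1 and 3 lay above both shares of their library and replicate 2 lay close to them. The DEK shares take in sites of all regions, so they are not on the same footing as the 3′UTR shares. All near sites lay in the 3′UTR, and of its sites alone 4 of 17, 1 of 5 and 5 of 16 were near. The mean DEK share of 17.4 ± 9.88% (SD, n = 3) moved with the window, to 6.93% within 25 nt and 28% within 100 nt.

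At 100 pg 2 of 2, 2 of 6 and 0 of 4 DEK sites were near the motif with RBFOX2, 4 of 13 with Enzyme-only (30.8%, 12.7 to 57.6%) and 1 of 2 with Buffer-only. The shares over all sites were 3.83%, 3.76% and 3.73% with RBFOX2 and 2.67% with Enzyme-only. Over 3′UTR sites they were 5.66%, 5.59% and 5.67% with RBFOX2 and 3.24% with Enzyme-only. The DEK counts again take in all regions. Of the DEK 3′UTR sites alone, 4 of 9 with RBFOX2, 4 of 8 with Enzyme-only and 1 of 1 with Buffer-only were near, each pooled over the group. RBFOX2 and Enzyme-only DEK sites were both found near the motif at this input, and their difference was not tested.

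Counted over the cytosines of the 3′UTR, 29 of 262 (11.1%) lie within 50 nt of a motif centre. With RBFOX2 at 1 ng, 9 of these 29 were called (31.0%, 95% Wilson interval 17.3 to 49.2%), against 26 of the 233 farther away (11.2%, 7.73 to 15.8%). With RBFOX2 at 100 pg, 4 of 29 were called (13.8%, 5.50 to 30.6%) against 5 of 233 (2.15%, 0.920 to 4.92%). With Enzyme-only at 100 pg the numbers were 4 of 29 and 4 of 233 (1.72%, 0.670 to 4.33%). Buffer-only at 100 pg had 1 of 29 (3.45%, 0.611 to 17.2%) and 0 of 233 (0 to 1.62%). With Enzyme-only at 1 ng the numbers were 0 of 29 (0 to 11.7%) and 5 of 233. The share was higher near the motif in all of these but the last, and neighbouring cytosines of 1 transcript share their reads and are not replicates.

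**Figure D4:**
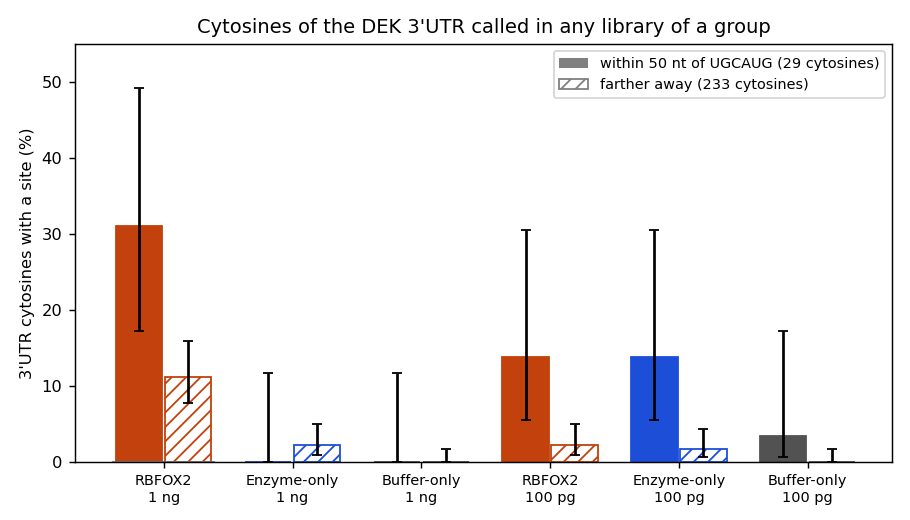
Share of the 3′UTR cytosines of DEK that were a site in any library of a group (%), within 50 nt of a UGCAUG (filled, 29 cytosines) and farther away (hatched, 233 cytosines). Bars start at 0 and whiskers are 95% Wilson intervals. The near bar is above the far bar for RBFOX2 at 1 ng (31.0% and 11.2%), and RBFOX2 and Enzyme-only at 100 pg have the same near value of 13.8%.

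The copies of the motif were not alike. The distal copy had 15 sites within 50 nt, of which 8 were from RBFOX2 at 1 ng, 2 from RBFOX2 at 100 pg, 4 from Enzyme-only at 100 pg and 1 from Buffer-only at 100 pg. The proximal copy had 4 sites, 2 from RBFOX2 at each input and none from a control. None of the 14 intronic copies had a site within 50 nt, and intronic coverage at called sites was at most 49 reads.

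At the distal copy the edits reached the motif itself. RBFOX2 replicate 1 at 100 pg had 10 of 125 reads edited (8%, 95% Wilson interval 4.40 to 14.1%) at 18225193, the cytosine of UGCAUG, and 10 of 131 (7.63%, 4.20 to 13.5%) at 18225199, 6.5 nt from its centre. The latter position was also called in RBFOX2 replicate 1 at 1 ng (3 of 79 reads, 3.8%). Between these positions, Enzyme-only at 100 pg was called at 18225196 and 18225197. Buffer-only replicate 2 at 100 pg, which received no enzyme, was also called at 18225196 (5 of 144 reads, 3.47%).

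The confident list of the study, made from clusters that overlap between the 3 RBFOX2 replicates, holds 1 DEK cluster at 1 ng and it remains after clusters of the Buffer-only list are taken out. It spans 300 nt (18225106 to 18225405), 314 to 613 nt after the stop codon, and includes the distal UGCAUG and 41 cytosines. These bounds are those of the cluster called in replicate 3. Inside them replicate 1 had clusters at 18225136 to 18225240 and 18225331 to 18225375, and replicate 2 had only the latter. The stretch covered by clusters of all 3 replicates was therefore 45 nt (18225331 to 18225375) and does not hold the motif. The 300 nt cluster is the 5th longest of 776 clusters, whose median length is 45 nt, and its mean depth signal in the authors' list is 242.

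The RBFOX2 libraries at 1 ng contributed 6, 1 and 9 sites to the whole stretch of 300 nt, on 14 different cytosines. No cytosine of it was called in all 3 replicates and 2 were called in a pair of them. In the libraries that did not make the list, the stretch held 2, 0 and 2 sites with RBFOX2 at 100 pg, 5 with Enzyme-only at 100 pg, none with Enzyme-only at 1 ng, and 1 with Buffer-only at 100 pg. The 100 pg lists of 267 RBFOX2 clusters and the Buffer-only lists hold no DEK cluster.

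The same holds for single positions over the whole transcript. The RBFOX2 libraries at 1 ng called 52 DEK positions, of which 3 were in 2 libraries and 0 in all 3. That is 5.77% in more than 1 library, beside 2.97% of the 90712 positions in all genes. At 100 pg none of the 12 RBFOX2 positions was called in more than 1 RBFOX2 library, beside 840 of 50023 positions in all genes. Over all libraries 13 of the 78 positions (16.7%) were found in more than 1, and each of these in exactly 2. Over all sites in genes this share was 4.30%, with a median coverage of 19 to 23 reads against 65 to 130 reads for the 3′UTR sites of DEK in the RBFOX2 libraries.

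Of the 12 RBFOX2 positions at 100 pg, 4 were also RBFOX2 positions at 1 ng (33.3% of the 100 pg and 7.69% of the 1 ng positions), and these are the cytosines printed above. For all gene sites the shares were 6% and 3.31%. At 18224838 the edited reads were 17 of 167 at 100 pg (10.2%, 95% Wilson interval 6.45 to 15.7%) and 3 of 167 at 1 ng (1.80%, 0.613 to 5.15%). At 18225466 they were 11 of 66 (16.7%, 9.57 to 27.4%) and 4 of 97 (4.12%, 1.62 to 10.1%). At 18225381 they were 2 of 81 and 4 of 142. The intervals of the inputs lay apart at 18224838 only and overlapped at the other 3 positions.

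Among the cytosines called in 2 RBFOX2 libraries at 1 ng, 18225600 had 3 of 84 and 4 of 80 edited reads, 18225358 had 2 of 100 and 3 of 134, and 18225153 had 5 of 84 and 2 of 132. Their fractions of 1.52 to 5.95% had overlapping intervals within each position. The Enzyme-only libraries called 19 positions, of which 3 were also RBFOX2 positions (15.8%, beside 6.79% for all sites in genes). Of the 4 Buffer-only positions, 1 was shared with RBFOX2, an intronic site at 18239984 with 1 edited read in each library.

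Genes whose site number followed that of DEK most closely over the 14 libraries were found by the Pearson correlation of log2 (sites per 10000 sites of the library + 0.5), among 4322 genes with at least 20 sites. They were CELF2, an RNA-binding protein of the CELF family (r = 0.875), STRAP, a WD-repeat protein of the SMN complex (0.873), SEPHS1, a selenophosphate synthetase homolog (0.870), SEH1L, a nucleoporin (0.858), and YWHAG, the 14-3-3 protein gamma (0.855). The 14 points share their groups and depth, so these values describe a likeness and carry no p. YWHAG held 18, 14 and 15 sites with RBFOX2, 1 with Enzyme-only and 1, 0 and 0 with Buffer-only at 1 ng. CELF2 held 7, 5 and 3 with RBFOX2, 2 with Enzyme-only and none with Buffer-only. At 100 pg the Enzyme-only library of CELF2 held 5 sites and its RBFOX2 libraries 1 each, the order seen for DEK, while SEPHS1 held 5 in Enzyme-only and 4, 8 and 4 with RBFOX2.

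Genes with roles near that of DEK were taken from 3 lists. Of 22 histone chaperones, 14 were tested at 1 ng and 1 was called higher and 0 lower, beside 1.18% and 0.332% of all genes. Their median log2 fold change was 0.02 and that of all genes 0.23. At 100 pg 10 were tested, edgeR called none, and the median was 0.97 beside 0.17 for all genes. The called gene was ANP32E, a chaperone that removes the histone variant H2A.Z. It held 10, 7 and 9 sites with RBFOX2, 11 with Enzyme-only and 0 in each Buffer-only library (edgeR adjusted p = 0.0357). It reached the count minimum through the RBFOX2 libraries only. With the 0 of Buffer-only set to 3 sites over the group, its raw site count was 8.67-fold higher with RBFOX2. That ratio is not scaled for the larger total of sites in the RBFOX2 libraries and is no bound. The call was lost in 5 of the 8 alternatives that still tested it, with DESeq2, with a coverage of at least 10 reads and without any 1 of the Buffer-only replicates (adjusted p-values of edgeR and DESeq2 from 0.00544 to 0.235 over the 8). Its fitted log2 fold change was 5.60 and stayed at 4.17 to 5.75 in these alternatives, a size that depends on how the 0 of Buffer-only is fitted. At 100 pg ANP32E held 7, 11 and 9 sites with RBFOX2, 3 with Enzyme-only, and 0, 1 and 1 with Buffer-only (edgeR adjusted p = 0.180).

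Of 16 partners and substrates of DEK, 10 were tested at 1 ng and 4 at 100 pg, and edgeR called none in either direction. The median log2 fold changes were 0.65 and 1.39, beside 0.23 and 0.17 for all genes. A gene can reach the count minimum through its RBFOX2 libraries alone. Among the 4 tested at 100 pg, H3-3B (7, 6 and 5 sites against 0, 0 and 0) and RNPS1 (3, 5 and 3 against 1, 0 and 0) did so. The medians of the 3 lists are therefore a description and no test. SRRM1, a splicing coactivator, held 9, 15 and 13 sites with RBFOX2, 5 with Enzyme-only and 1, 5 and 3 with Buffer-only at 1 ng. CSNK2A1, a catalytic subunit of casein kinase 2, held 10, 11 and 5 against 1, 1 and 2, with 9 in Enzyme-only. PARP1, which adds ADP-ribose chains to DEK, held 3, 4 and 5 against 1, 2 and 6, and these overlap. CBX5, the heterochromatin protein HP1 alpha, held 6 in each RBFOX2 library against 4, 0 and 0.

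Of 22 genes of chromatin architecture, 17 were tested at 1 ng and 11 at 100 pg, and edgeR again called none. The median log2 fold changes were 0.32 and 0.64. CHD1, a chromatin remodeller, held 8, 13 and 19 sites with RBFOX2 and 4, 5 and 4 with Buffer-only at 1 ng. SMC4, a condensin subunit, held 13, 7 and 16 against 6, 2 and 2. SMARCA5, the ATPase of ISWI remodellers, held 16, 7 and 9 against 3, 3 and 5. HDAC2, a histone deacetylase, held 11, 9 and 4 against 1, 0 and 2 at 1 ng, and 11, 4 and 12 against 4, 0 and 0 at 100 pg.

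Without scaling, more members of these lists had every RBFOX2 library above every Buffer-only library than were called. At 1 ng this was so for 7 of 21 chaperones, 8 of 15 partners and 12 of 20 architecture genes with 5 sites or more, beside the 27.7% of all such genes. At 100 pg it was so for 5 of 20, 2 of 13 and 6 of 22, beside 9.24%. These shares are counts of sites that also follow the larger total of sites in the RBFOX2 libraries.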

How the data were processed

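Per the labels and methods, the authors trimmed reads with cutadapt, removed repeats, mapped the rest with STAR 2.4.0 (submitters' processing notes) against hg38, and called sites with SAILOR, which drops known variants. For each site the deposited files hold counts of edited and total reads and a score, kept above 0.5 with an edit fraction below 0.8. FLARE clusters (false discovery rate 0.1, merge distance 15 nt) were deposited with a fraction, a score, counts and a depth signal, and confident lists with a mean depth signal.

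Groups came from the labels. Gencode 44 was used. Sites per gene were tested with edgeR 4.0.16 (R 4.3.3, TMM, quasi-likelihood test, Benjamini-Hochberg adjustment at 0.05), for genes with 3 sites in 3 libraries and 5 in all. Values per library were compared by exact two-sided permutation. DESeq2 1.42.0 was an alternative. The edgeR step was tested on simulated data. Python 3.11.15 was used with scipy 1.17.1, pandas 2.3.3, numpy 2.4.6 and matplotlib 3.10.9.

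DEK and the gene lists were chosen with earlier results of these data known. Named genes were DEK, overlapping genes, the 5 genes most alike in site number, and from each list the called genes or otherwise the 4 with most sites. Within each input, deviations of libraries with the same number were uncorrelated (−0.04 to 0.01), so numbers were not taken as pairs. Libraries of the same number were not compared between inputs in this way.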

Additional observations from a re-analysis of the deposited data

Results flagged for a closer look

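The Enzyme-only libraries enter no test between groups, and in both of them DEK held more sites than in any Buffer-only library of the same input. At 1 ng there were 7 sites against at most 2, and at 100 pg there were 13 against at most 1. Each is a single library. No group had enough libraries to look for a single one that stood apart.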

How the results depend on the processing

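Mean differences in DEK sites between RBFOX2 and Buffer-only kept their direction under every setting tried. At 1 ng the difference of 17.7 sites became 15.3 with a coverage of at least 10 reads, 8.33 with a SAILOR score of at least 0.9 and 4.08 when counted per 10000 sites, and 16.8 to 18.8 with 1 library left out. The log2 fold change at 1 ng of 3.22 became 5.56 with the higher score, 2.65 to 6.80 with 1 library left out (6.80 without Buffer-only replicate 1), and 3.22 with the replicate block. Without an RBFOX2 library DEK fell under the count minimum, and unfiltered fits, added after seeing the data, gave 3.58 to 3.75. The share of DEK sites near UGCAUG was 6.93% within 25 nt, 28% within 100 nt and 13.7 to 23% with 1 library left out, instead of 17.4%. At 100 pg the difference was 1.33 sites with the higher score (exact permutation p = 0.3) and 2.33 without RBFOX2 replicate 2, instead of 3.33, and the difference of 25.7 edited reads was 16.2 without that library. The 12 unfiltered fits of DEK, 11 of them added after seeing the data, gave log2 fold changes of 1.1 to 2.38 with adjusted p-values from 0.651 to 0.979, and the fit with the replicate block gave 2.01. Genes called at 100 pg numbered 0, but 1 with the replicate block, 1 with no filter beyond 1 site and 0 to 3 with 1 library left out (3 without RBFOX2 replicate 1 and 2 without RBFOX2 replicate 3). At 1 ng edgeR called 41 genes, 60 with the replicate block, 252 with no scaling, 92 with no filter, 25 with the default edgeR filter, 9 with the higher score and 0 with a coverage of at least 10 reads (258 passed an unadjusted p of 0.05 upwards and 71 downwards). DESeq2 called 0. Leaving out 1 library took the 41 to between 0 and 7, with 0 without Buffer-only replicate 2 or 3, 4 without Buffer-only replicate 1, and 6, 2 and 7 without RBFOX2 replicates 1, 2 and 3. The exact tests with 1 library left out cannot go below p = 0.2. Few DEK sites per library, and coverage known only at called sites, limit these values.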
